A study of Mus musculus with 24 samples.

Results

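The genes described here are targets of PPAR-alpha and genes of fatty acid oxidation in mouse liver, 36 genes chosen by name, of which 35 were measured among 18193 genes. They were found by their symbol in the platform annotation, each read from the brightest of its probe sets over the 24 arrays. The remaining member, Cyp4a10, shared its only annotated probe set with Cyp4a31 and was not analysed here. By role the measured members comprised the receptor gene Ppara, 13 mitochondrial genes, 7 peroxisomal genes, 3 genes whose proteins work in both organelles, 5 genes of fatty acid uptake, binding and cytosolic hydrolysis, 3 omega-oxidation genes and 3 genes of secreted or cell surface proteins.

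PPAR-alpha, encoded by Ppara, is a nuclear receptor that binds fatty acids and, as a dimer with RXR, activates genes through a response element made of a short sequence repeated directly. In mouse liver its targets carry fatty acids into the cell, activate them and oxidise them: mitochondria take most long-chain fatty acids through the carnitine shuttle, and peroxisomes shorten the longest chains. The receptor is known for its part in the hepatic response to fasting, and in rodents its synthetic agonists enlarge and multiply peroxisomes.

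The livers came from 24 male BALB/c mice in 4 diet groups of 6, with 1 Affymetrix expression array per mouse. Control mice received the purified diet AIN93G. The others received it with 0.1%, 0.5% or 1% quercetin, a plant flavonol, for 14 days. All had been obtained at 6 weeks of age and kept for 1 week on a nonpurified diet beforehand. The design asks which transcripts follow the dose and which differ from the control diet. The mice were housed 3 to a cage, and since the labels do not tie mice to cages, an effect of the cage and one of the diet cannot be told apart. The tissue was whole liver, so a lower level in fewer cells and less RNA per cell cannot be told apart.

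Levels are log2(intensity + 1) after quantile normalization between arrays. Differences come from limma with their standard error (SE), and each adjusted p is a Benjamini-Hochberg value over all 18193 genes, with 0.05 as the threshold. The deposited arrays had medians between 4.78 and 7.58, and 6 arrays per diet limit the precision. Of 10 hepatocyte markers, 9 were measured, and their summed normalized intensity lay between 43600 and 48200 in all 24 livers. Among them Apoa1, Ttr and Alb had mean levels of 13.3, 13.2 and 13.1, near the highest normalized value of 13.48. Quantile normalization gives all arrays the same top values, so a sum led by such genes cannot show whether hepatocyte content was constant. The summed intensity of 9 neutrophil markers ran from 73.6 to 105 in control livers, 84.2 to 117 at 0.1%, 94 to 1490 at 0.5% and 127 to 398 at 1.0%. Of 4 adipocyte markers measured, Adipoq, Lep and Retn had mean levels of 1.23, 0.884 and 1.47 on the log2 scale, with 8%, 2.29% and 13.3% of all genes below them. The fourth, Car3, which hepatocytes also express, had a mean of 13.1 and made up nearly all of the list's summed intensity. The ratio of the 3′ to the 5′ Gapdh probe set had medians of 0.768, 0.754, 0.782 and 0.795 from control to 1.0%. Replicates 4 and 6 of the 0.5% group and replicates 4 and 5 of the 1.0% group stood apart on the first principal component, which held 9.15% of the variance, and a printed difference of a member that changes sign or moves by over 1.5 times without them is also given without them.

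Against the control diet, no member passed the threshold at any dose. Over all genes, 0 (0%) passed at 0.1%, 3 (0.0165%) at 0.5% and 4 (0.022%) at 1.0%. At an unadjusted p under 0.05 there was 1 member at 0.1% (Ppara, lower), 2 at 0.5% (Ppara and Fgf21, both lower) and 3 at 1.0% (Cpt1a, Pex11a and Eci2, all higher). These were 2.86%, 5.71% and 8.57% of the members, and the same rule took in 5.11%, 7.66% and 8.92% of all genes in either direction. In the direction of the members it took in 2.35% of all genes at 0.1% and 3.91% at 0.5% (lower) and 4.47% at 1.0% (higher). The members' shares were no larger than the background of either direction and were above that of their own direction, with few members in each count. With the 4 arrays that stood apart left out, these counts changed: 3 members were at an unadjusted p under 0.05 at 0.1% (8.57%, against 5.95% of all genes), 0 at 0.5% (against 5.11%) and 9 at 1.0% (25.7%, against 8.11%), 7 of them higher, and again none passed the adjusted threshold. At 0.1%, 9 of 35 members (25.7%) lay above control, against 52.2% of all genes, with a median log2 difference of -0.04. At 0.5% 13 of 35 (37.1%) did, against 46.6%, with a median of -0.04. At 1.0% the differences were small and mostly above 0: 28 of 35 members (80%) lay above control, against 48.5% of all genes, with a median of 0.11 for the members and -0.00902 for all genes. The members' median was 0.0586 without replicate 1 of the 1.0% group, the lowest with any 1 array left out, and 0.0493 with arrays centred on their medians, where that of all genes was -0.056.

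**Figure D1:**
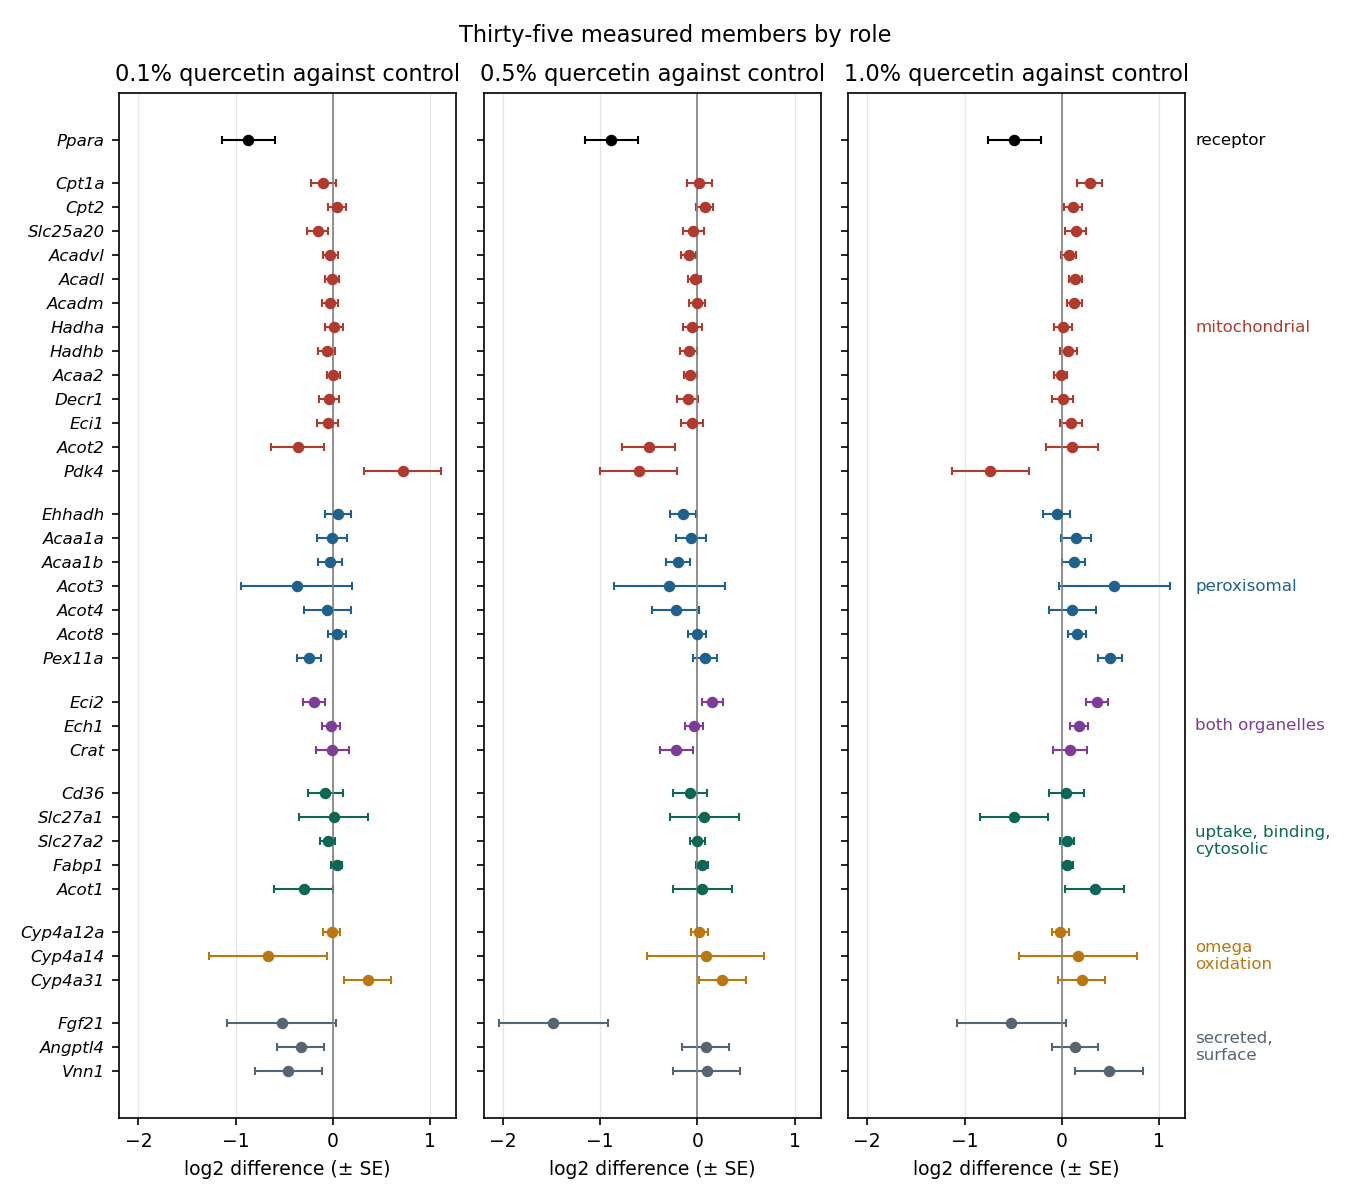
Log2 difference from control (x axis, with its SE) of the 35 measured members, grouped by role, at 0.1%, 0.5% and 1.0% quercetin. At 1.0% 28 of 35 points lie right of 0 and at 0.1% 9 of 35; no single difference passed an adjusted p of 0.05.

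Between the highest and the lowest dose the members separated more clearly. At 1.0% against 0.1% quercetin, 2 members rose, Pex11a and Eci2, which is 5.71% of the members, where 0.253% of all genes passed in either direction (46 genes) and 0.115% rose. A further 5 members were higher at an unadjusted p under 0.05 (Cpt1a, Slc25a20, Acadl, Acot1 and Vnn1) and Pdk4 was lower. In all, 7 members were higher by this rule (20% of members, against 4.23% of all genes). Without the 4 arrays that stood apart 13 were higher and Pdk4 lower, together 40% of the members and 8.26% of all genes, while none passed after adjustment. The groups did not overlap for Pex11a and Cpt1a, all 6 mice at 1.0% being above all 6 at 0.1%, which held for 0.522% of all genes. For Cpt1a the separation was very small, as the nearest values of both groups round to 9.34. Of the 35 members, 29 (82.9%) lay higher at 1.0%, against 47.2% of all genes, with medians of 0.15 and -0.02. No member passed at 1.0% against 0.5%, where 0.022% of all genes did, or at 0.5% against 0.1%, where 0.214% did.

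Pex11a, which encodes a peroxisomal membrane protein that promotes peroxisome division, was the only member to pass the test of the slope over dose and the test for any difference among the diets. Its gene lies on chromosome 7 (GRCm38.p6, chr7:79735957-79743131). Its levels were 7.74 to 8.12 (median 7.95) in control livers, 7.56 to 7.79 (median 7.71) at 0.1%, 7.71 to 8.30 (median 8.05) at 0.5% and 8.06 to 8.80 (median 8.40) at 1.0%. The order of the medians put 0.1% below the control diet, with 0.5% between control and 1.0%, and neighbouring groups overlapped. At 1.0% against 0.1% the log2 difference was 0.735 (SE 0.12, 1.66-fold, adjusted p = 0.00682), and 15th in order of p among all genes. The slope was 0.61 per 1% of quercetin in the diet (SE 0.12, adjusted p = 0.0447), where 0.0989% of all genes passed, and the test for any difference among diets gave an adjusted p of 0.0359 (0.181% of genes). Against control the difference at 1.0% was 0.49 (SE 0.12, adjusted p = 0.269), with 6 of 6 mice above the control mean.

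Both arrays of the 1.0% group that stood apart carried higher Pex11a values than the other 4, which ran from 8.06 to 8.47. Without the 4 arrays that stood apart, the difference between 1.0% and 0.1% was 0.58 (adjusted p = 0.051) and the slope 0.44 (adjusted p = 0.236). Without normalization between arrays they were 0.68 (adjusted p = 0.439) and 0.63 (adjusted p = 0.355). The second Pex11a probe set, which the main test did not use, had a slope of 0.61 (adjusted p = 0.0396 over 34945 probe sets) and a difference between 1.0% and 0.1% of 0.63 (adjusted p = 0.0557). At 1.0% against 0.1%, 9 of 9 neutrophil markers also had differences above 0, none passing, and their part in the Pex11a result was not tested.

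Eci2, whose enoyl-CoA isomerase repositions double bonds of unsaturated fatty acids in peroxisomes and mitochondria, was the other member that rose at 1.0% against 0.1%. Its levels were 9.26 to 9.53 (median 9.32) in control livers, 8.90 to 9.47 (median 9.14) at 0.1%, 9.24 to 9.78 (median 9.52) at 0.5% and 9.38 to 9.83 (median 9.77) at 1.0%. All 1.0% mice lay above the 0.1% mean and 5 of 6 above the highest 0.1% mouse; replicate 2 of the 1.0% group was the exception. The log2 difference was 0.56 (SE 0.11, 1.47-fold, adjusted p = 0.0327). The slope of 0.47 (SE 0.10) did not pass (adjusted p = 0.0717), nor did the difference of 0.36 between 1.0% and control (SE 0.11, adjusted p = 0.365). The call between 1.0% and 0.1% was lost without the 4 arrays that stood apart (0.51, adjusted p = 0.139) and without normalization (0.50, adjusted p = 0.702).

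**Figure D2:**
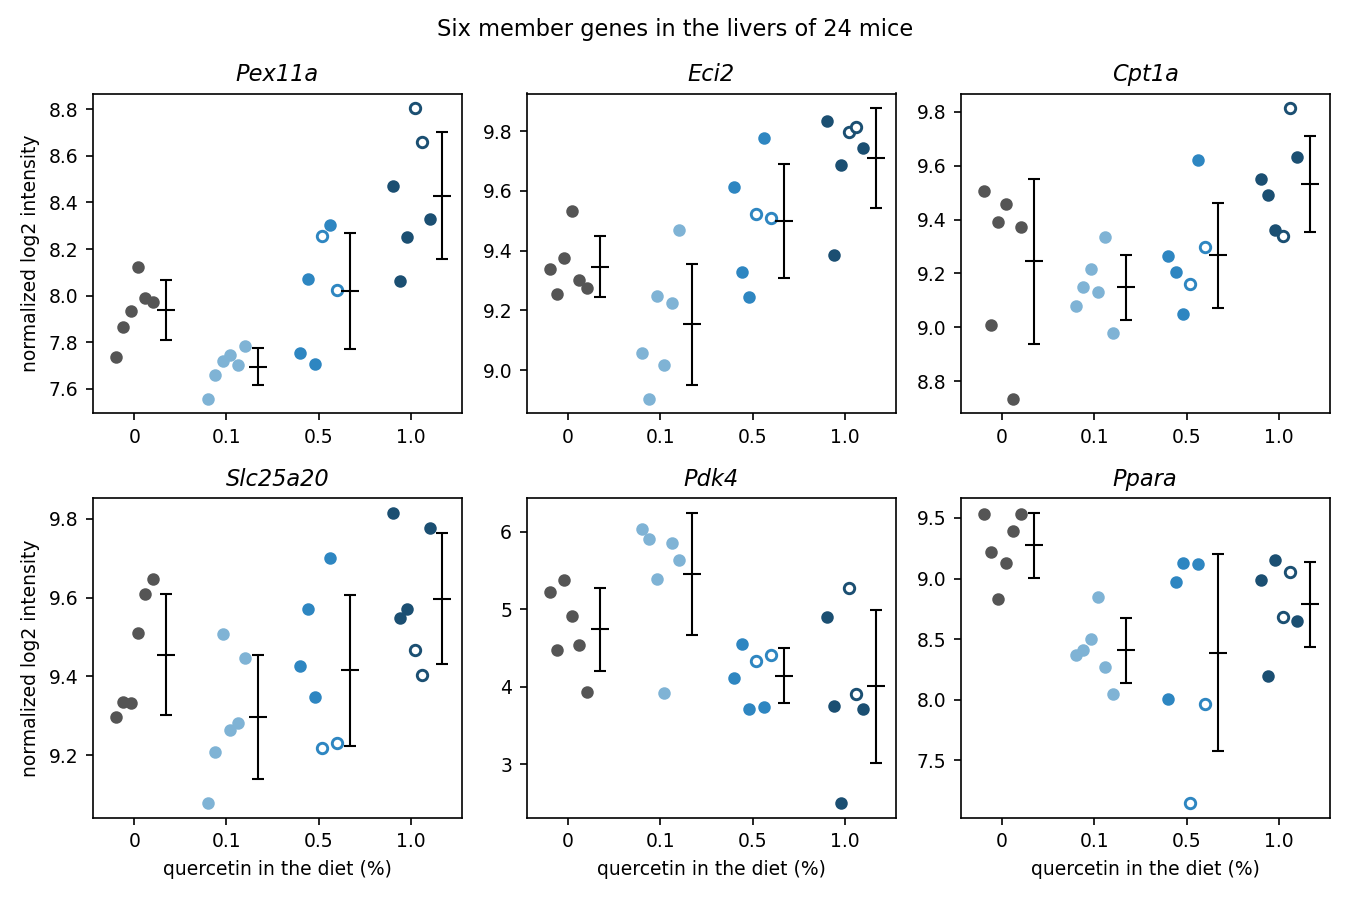
Normalized log2 intensity (y axis) of 6 members in each mouse by quercetin in the diet (x axis), with the mean and SD of 6 mice beside the points; open circles mark the 4 arrays that stood apart. Pex11a at 1.0% does not overlap with 0.1%, and Cpt1a barely separates, its nearest values both rounding to 9.34. The mean of Pdk4 is lower at 1.0% than at 0.1%, and Ppara is highest in the control group.

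The stretches upstream of Pex11a and Eci2 are shown because these 2 members rose, beside that of Fabp1, the member with the closest match to the PPAR response element. The 250 bases before an annotated transcript start were taken from RefSeq (GRCm38.p6) for 27 of the 36 members, which had 30 such promoters. Of the windows named here, those of Eci2 (gene at chr13:34977748-35027115), Acot4 and Cd36 lie inside the annotated span of their genes. They precede an internal transcript start. The element was searched on both strands as AGGTCANAGGTCA with up to 2 mismatches among its 12 fixed letters, and the repeat unit AGGTCA was searched on its own, a motif that overlaps the element. In the sequences below, written 5′ to 3′ on the strand of the gene, capitals mark the match.
Pex11a (chr7:79743132-79743381, minus strand): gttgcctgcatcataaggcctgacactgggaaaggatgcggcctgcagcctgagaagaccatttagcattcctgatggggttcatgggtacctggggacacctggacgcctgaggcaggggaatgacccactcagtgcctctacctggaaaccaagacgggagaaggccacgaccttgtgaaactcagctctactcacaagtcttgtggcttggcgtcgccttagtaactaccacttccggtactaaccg
Eci2 (chr13:34994145-34994394, minus strand): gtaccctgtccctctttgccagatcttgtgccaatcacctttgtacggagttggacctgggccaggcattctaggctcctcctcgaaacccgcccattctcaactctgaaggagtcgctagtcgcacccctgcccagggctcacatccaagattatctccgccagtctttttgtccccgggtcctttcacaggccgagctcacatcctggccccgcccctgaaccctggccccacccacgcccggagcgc
Fabp1 (chr6:71199629-71199878, plus strand): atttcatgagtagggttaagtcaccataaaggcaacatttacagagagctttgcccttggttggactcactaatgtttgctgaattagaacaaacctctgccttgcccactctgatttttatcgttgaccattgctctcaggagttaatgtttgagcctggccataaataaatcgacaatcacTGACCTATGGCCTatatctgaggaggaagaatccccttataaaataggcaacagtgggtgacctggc
The Fabp1 match begins 67 bases before the transcript start, reads the repeat on the opposite strand and has 1 mismatch. Matches with 2 mismatches stood before Acot4 and Cd36, so that 3 of 30 member promoters (10.0%) held one, against 3.24% of 32851 promoters of all genes. An exact repeat unit was present in 23.3% of member promoters and 14.0% of all promoters. The windows before Pex11a and Eci2 held no match, their closest stretches having 5 and 4 mismatches, which says only that these letters are not in this window.

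Among the mitochondrial members, none passed in any comparison. Above control lay 4 of 13 at 0.1% (median -0.03), 2 of 13 at 0.5% (median -0.06) and 11 of 13 at 1.0% (median 0.10), and at 1.0% 11 of 13 also lay above 0.1% (median 0.13). Over the other 20 arrays, 8 of 13 lay above control at 0.5% (median 0.01) and 12 of 13 at 1.0% (median 0.14). Centred on array medians, 11 of 13 lay above control at 0.5% (84.6%), against 59.3% of all genes and 81.4% of the 1820 brightest genes. At 1.0% 7 of 13 did (53.8%, median 0.02), against 42.2% and 20.2%. As deposited 11 of 13 did at 0.5% (84.6%), against 69.7% of all genes and 93.1% of the brightest. At 1.0% 12 of 13 did (92.3%), against 58.7% and 53.7%. Cpt1a encodes the liver carnitine palmitoyltransferase of the outer membrane, the controlled entry step of long-chain fatty acids. Its levels were 8.73 to 9.51 (median 9.38) in control livers, 8.98 to 9.34 (median 9.14) at 0.1%, 9.05 to 9.62 (median 9.24) at 0.5% and 9.34 to 9.81 (median 9.52) at 1.0%. Every 1.0% mouse was above every 0.1% mouse, but barely, as the nearest values of these groups both round to 9.34. The 1.0% and control groups overlapped. The differences were 0.38 against 0.1% (SE 0.13, adjusted p = 0.316) and 0.29 against control (SE 0.13, adjusted p = 0.525). Both other Cpt1a probe sets also lay above control at 1.0%, by 0.87 and 0.62 (adjusted p = 0.378 each over all probe sets).

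Slc25a20, the carrier that moves acylcarnitines across the inner membrane, had levels of 9.30 to 9.65 (median 9.42) in control livers, 9.08 to 9.51 (median 9.27) at 0.1%, 9.22 to 9.70 (median 9.39) at 0.5% and 9.40 to 9.82 (median 9.56) at 1.0%. Its difference at 1.0% against 0.1% was 0.30 (SE 0.11, adjusted p = 0.356). Acadl, long-chain acyl-CoA dehydrogenase of the first step of the beta-oxidation spiral, had levels of 9.59 to 9.69 (median 9.65) in control livers, 9.61 to 9.71 (median 9.62) at 0.1%, 9.46 to 9.72 (median 9.64) at 0.5% and 9.67 to 9.90 (median 9.79) at 1.0%. At 1.0% 5 of 6 mice exceeded every control mouse and every 0.1% mouse, yet the difference from control was only 0.14 (SE 0.07, adjusted p = 0.59). Acadl and Acaa2 had the smallest spread within diets of the members other than Fabp1, with standard deviations of 0.0727 and 0.0774.

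The other enzymes of the spiral differed from control at 1.0% by no more than Acadl with all arrays. Acadm was close to Acadl, and at 1.0% against 0.1% it had a difference of 0.16, where Acadl had 0.15. Cpt2, Acadvl, Acadm, Hadha, Hadhb, Acaa2, Decr1 and Eci1, which cover carnitine removal, the chain-length specific dehydrogenases, the trifunctional protein, the final thiolase and the handling of unsaturated chains, had differences between -0.01 (Acaa2) and 0.13 (Acadm) at 1.0% against control, with unadjusted p of 0.123 or more. With the 4 arrays that stood apart left out they ran from 0.00 (Acaa2) to 0.18 (Acadm), with unadjusted p of 0.0307 or more. Acot2, a mitochondrial acyl-CoA thioesterase at a dim signal (3.72 to 6.07 in all livers), was 0.10 above control at 1.0% and 0.50 below it at 0.5% (log2 difference -0.50, adjusted p = 0.687). The difference at 0.5% was -0.12 when both arrays of that group that stood apart were left out.

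Pdk4 encodes the kinase that shuts off pyruvate dehydrogenase when fatty acids are burned, and with Acaa2 it was 1 of 2 mitochondrial members whose mean was lower at 1.0% than at 0.1%. Its levels were 3.93 to 5.37 (median 4.72) in control livers, 3.92 to 6.04 (median 5.75) at 0.1%, 3.71 to 4.55 (median 4.22) at 0.5% and 2.50 to 5.27 (median 3.83) at 1.0%. At 0.1% 5 of 6 mice exceeded every control mouse, and replicate 4 was below all of them. At 1.0% against 0.1% the log2 difference was -1.45 (SE 0.39, fold 0.366, adjusted p = 0.155). It was -1.74 without the 4 arrays that stood apart (adjusted p = 0.137) and -1.76 without replicate 4 of the 0.1% group (adjusted p = 0.0404). That mouse was singled out by its Pdk4 value, so the last p does not count as a pass. Its slope of -1.16 (SE 0.39) did not pass (adjusted p = 0.238).

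Of the 7 peroxisomal members, 2 lay above control at 0.1% (median -0.03), 1 at 0.5% (median -0.145) and 6 at 1.0% (median 0.15). Leaving out the 4 arrays that stood apart gave 5 at 0.5% (median 0.01) and 6 at 1.0% (median 0.19). As deposited, 4 lay above control at 0.5% (median 0.09) and 6 at 1.0% (median 0.18). Centred on array medians, 4 did at 0.5% (median 0.01) and 6 at 1.0% (median 0.07). All genes had medians of 0.146 at 0.5% and 0.0541 at 1.0% as deposited, and 0.0608 and -0.056 centred. The peroxisomal medians at 0.5% were thus below those of all genes under both scalings, and those at 1.0% above. Only Pex11a passed a test. Ehhadh, the bifunctional enzyme of peroxisomal beta-oxidation, was the exception at 1.0%, with a difference of -0.05 (SE 0.14), or -0.02 without the arrays that stood apart. Acaa1b, a peroxisomal thiolase and a bright probe set, was 0.12 above control at 1.0% (SE 0.12) and 0.20 below it at 0.5% (log2 difference -0.20, SE 0.12). Without the arrays that stood apart it was 0.00 at 0.5% and 0.20 at 1.0%. Acaa1a, its near-identical neighbour on chromosome 9, was read by a probe set of a kind that can bind related transcripts, so the thiolase pair may not be separated. Its levels were 6.19 to 6.86 (median 6.67) in control livers, 6.32 to 6.72 (median 6.58) at 0.1%, 6.22 to 6.83 (median 6.52) at 0.5% and 6.29 to 7.19 (median 6.65) at 1.0%.

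The peroxisomal thioesterases Acot3, Acot4 and Acot8 cleave acyl-CoAs, and Acot1 to Acot4 are close relatives within one cluster on chromosome 12 whose probes may not tell them apart. Acot8 had levels of 6.31 to 6.64 (median 6.51) in control livers, 6.35 to 6.88 (median 6.52) at 0.1%, 6.44 to 6.62 (median 6.50) at 0.5% and 6.55 to 6.96 (median 6.63) at 1.0%, and 0.15 more at 1.0% than in control (SE 0.09, adjusted p = 0.675). Acot3 was dim and scattered, at 1.89 to 5.65 (median 4.65) in control livers, 3.20 to 5.25 (median 3.93) at 0.1%, 3.06 to 6.18 (median 3.61) at 0.5% and 4.39 to 5.96 (median 4.58) at 1.0%, and its 1.0% difference of 0.54 had an SE of 0.57. Acot4 was 0.11 above control at 1.0% (SE 0.24).

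Set side by side, the organelles differed little. In each liver the mean deviation of the 7 peroxisomal members from their control means averaged -0.087 ± 0.178 at 0.1%, -0.120 ± 0.329 at 0.5% and 0.215 ± 0.175 at 1.0% (SD, n = 6 each). For the 13 mitochondrial members it averaged -0.004 ± 0.0952 at 0.1%, -0.118 ± 0.138 at 0.5% and 0.033 ± 0.143 at 1.0%. Leaving out the 4 arrays that stood apart turned the peroxisomal mean at 0.5% to 0.021 ± 0.26 and gave 0.262 ± 0.195 at 1.0%, and the mitochondrial one was -0.051 ± 0.086 at 0.5% and 0.053 ± 0.175 at 1.0% (SD, n = 4 each). The peroxisomal minus mitochondrial difference was 0.000 ± 0.196 in control livers, -0.083 ± 0.156 at 0.1%, -0.002 ± 0.213 at 0.5% and 0.182 ± 0.0929 at 1.0%; without those arrays it was 0.073 ± 0.209 at 0.5% and 0.209 ± 0.105 at 1.0%. At 1.0% it ran from 0.10 to 0.36, above 0 in every liver, and the groups overlapped, control livers running from -0.28 to 0.26. The value at 1.0% was 0.0369 with medians in place of means, 0.136 without Pex11a and 0.118 without Pdk4. It was 0.103 with 16 in place of 1 added to the intensities before the logarithm. Without control replicate 5, in which the dim peroxisomal member Acot3 lay at 1.89, it was 0.126. No test was made over the lists.

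**Figure D3:**
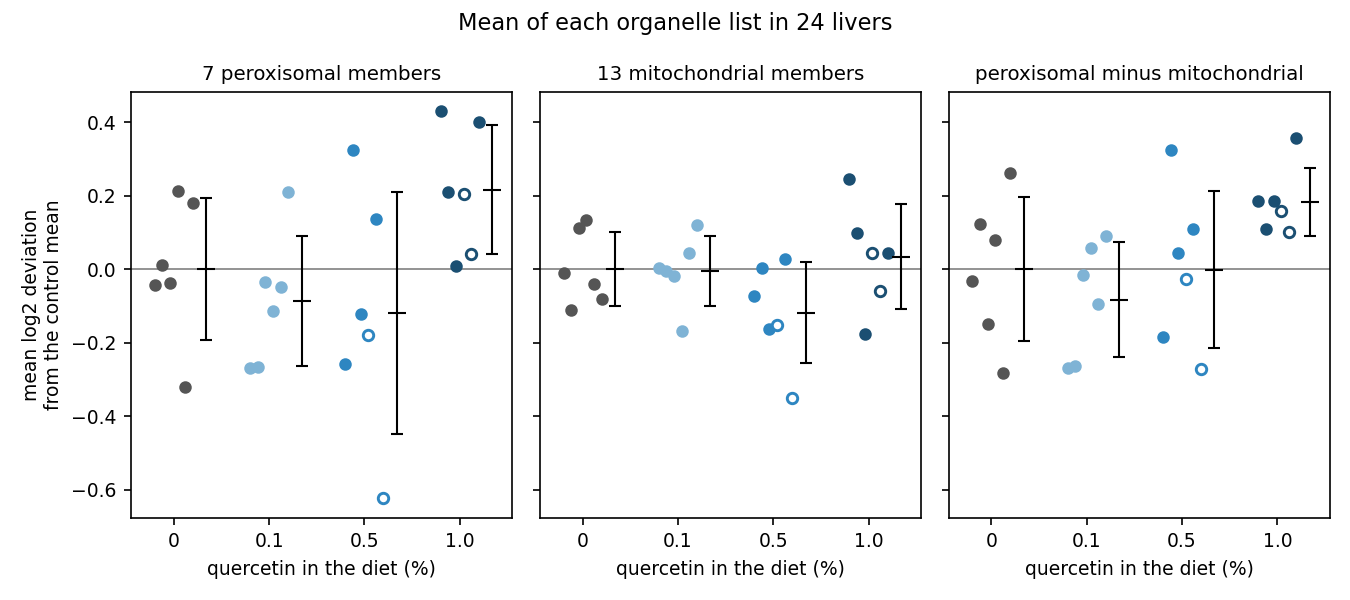
Mean log2 deviation from the control mean (y axis) of the 7 peroxisomal and the 13 mitochondrial members, and the difference between both, in each of 24 livers by quercetin in the diet (x axis), with mean and SD; open circles mark the 4 arrays that stood apart. At 1.0% the difference runs from 0.10 to 0.36 and overlaps with the control range of -0.28 to 0.26.

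Besides Eci2, both other members at home in both organelles lay higher at 1.0% than at 0.1% without passing. Ech1, a dienoyl-CoA isomerase, had levels of 10.27 to 10.49 (median 10.43) in control livers, 10.28 to 10.45 (median 10.39) at 0.1%, 10.03 to 10.56 (median 10.38) at 0.5% and 10.31 to 10.78 (median 10.56) at 1.0%, and a difference of 0.20 between 1.0% and 0.1% (SE 0.10, adjusted p = 0.535). Crat, carnitine acetyltransferase, had levels of 5.17 to 5.69 (median 5.49) in control livers, 5.09 to 5.73 (median 5.41) at 0.1%, 4.67 to 5.59 (median 5.31) at 0.5% and 5.12 to 6.12 (median 5.49) at 1.0%, which overlapped in all groups.

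The members of uptake, binding and cytosolic hydrolysis showed no difference that passed. Slc27a2, a very long-chain acyl-CoA synthetase and fatty acid transporter, kept to 11.59 to 11.84 (median 11.65) in control livers, 11.59 to 11.65 (median 11.62) at 0.1%, 11.56 to 11.80 (median 11.65) at 0.5% and 11.60 to 11.87 (median 11.69) at 1.0%. Acot1, a cytosolic acyl-CoA thioesterase, had levels of 5.67 to 6.51 (median 5.86) in control livers, 5.01 to 6.12 (median 5.62) at 0.1%, 5.17 to 7.08 (median 5.86) at 0.5% and 5.47 to 6.95 (median 6.30) at 1.0%, and was 0.64 higher at 1.0% than at 0.1% (SE 0.30, adjusted p = 0.522). Slc27a1, a fatty acid transporter mainly of muscle and fat, was dim at 2.68 to 4.30 (median 3.51) in control livers, 3.06 to 3.94 (median 3.60) at 0.1%, 2.30 to 4.13 (median 3.90) at 0.5% and 1.46 to 3.78 (median 3.25) at 1.0%, and its difference at 1.0% was -0.49 (SE 0.35). These groups overlapped throughout.

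Cd36, a fatty acid translocase, differed from control by 0.05 at 1.0% (SE 0.18) and by 0.25 without the arrays that stood apart. Fabp1, the abundant liver fatty acid-binding protein, was the brightest probe set on 18 of 24 arrays, where quantile normalization gives it the common top value of 13.48, so on those arrays an increase of Fabp1 could not be seen on this scale and its small spread within diets (SD 0.0374) is bounded by that value.

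The omega-oxidation members, cytochrome P450 enzymes that hydroxylate the far end of fatty acids and are classic PPAR-alpha targets in mice, had no difference that passed, and some lay near the bottom of the scale. Cyp4a12a, a male-biased liver gene, kept to 9.94 to 10.29 (median 10.09) in control livers, 10.01 to 10.13 (median 10.09) at 0.1%, 9.96 to 10.25 (median 10.14) at 0.5% and 9.85 to 10.29 (median 10.04) at 1.0%. Cyp4a14 lay at 1.68 to 4.00 (median 3.34) in control livers, 0.70 to 3.56 (median 2.95) at 0.1%, 2.18 to 3.71 (median 3.30) at 0.5% and 1.09 to 4.75 (median 3.69) at 1.0%, and its differences from control were -0.67 at 0.1%, 0.09 at 0.5% and 0.17 at 1.0% (SE 0.60 each). Without the arrays that stood apart they were 0.34 at 0.5% and -0.35 at 1.0%. Cyp4a31 was also dim, at 2.94 to 4.03 (median 3.81) in control livers, 3.49 to 4.38 (median 4.09) at 0.1%, 3.46 to 4.31 (median 3.99) at 0.5% and 2.97 to 4.45 (median 4.02) at 1.0%. Cyp4a14 had 42.9% and Cyp4a31 53% of all genes below it in mean signal. Changes at such a dim signal are understated on the log2(intensity + 1) scale, though single livers still ran from 0.70 to 4.75 for Cyp4a14.

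The receptor gene itself had lower means than control at each dose, without passing. Ppara levels were 8.83 to 9.54 (median 9.31) in control livers, 8.04 to 8.85 (median 8.39) at 0.1%, 7.14 to 9.13 (median 8.49) at 0.5% and 8.20 to 9.15 (median 8.84) at 1.0%. Every liver of the quercetin groups lay below the control mean, and 5 of 6 at 0.1% lay below the lowest control liver. The log2 differences were -0.87 at 0.1% (SE 0.27, adjusted p = 0.877), -0.89 at 0.5% (SE 0.27, adjusted p = 0.507) and -0.49 at 1.0% (SE 0.27, adjusted p = 0.641), none of which passed. At 0.5% both arrays that stood apart had the lowest Ppara levels, 7.14 and 7.96, and without them the difference was -0.47 (adjusted p = 0.969). Both other Ppara probe sets were lower than control at all 3 doses too, by less: -0.26 and -0.41 at 0.1%, -0.35 and -0.26 at 0.5%, and -0.18 and -0.16 at 1.0%.

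Of the secreted and surface members, Vnn1, a pantetheinase of the hepatocyte surface and a common marker of PPAR-alpha activity in mice, had levels of 5.93 to 7.26 (median 6.01) in control livers, 5.50 to 6.57 (median 5.79) at 0.1%, 5.61 to 7.26 (median 6.38) at 0.5% and 5.86 to 7.86 (median 6.90) at 1.0%. Its difference at 1.0% against 0.1% was 0.94 (SE 0.34, 1.92-fold, adjusted p = 0.37), the largest positive one of the 35 members, and the groups overlapped. Without the arrays that stood apart it was 1.36 (adjusted p = 0.0931). Angptl4, an inhibitor of lipoprotein lipase, had levels of 7.93 to 8.37 (median 8.16) in control livers, 7.75 to 7.89 (median 7.85) at 0.1%, 7.73 to 8.78 (median 8.23) at 0.5% and 7.41 to 9.19 (median 8.23) at 1.0%. All 6 mice at 0.1% were below all 6 control mice, a pattern that 0.209% of all genes shared, with a difference of -0.33 (SE 0.24, adjusted p = 0.998). Its highest values at 1.0%, 9.09 and 9.19, came from both arrays that stood apart, and the difference from control at 1.0% was 0.13 with them and -0.29 without. Fgf21, a fasting hormone made by the liver, had levels of 5.10 to 7.07 (median 6.42) in control livers, 4.36 to 6.71 (median 6.23) at 0.1%, 2.90 to 6.65 (median 5.20) at 0.5% and 4.82 to 7.14 (median 5.79) at 1.0%, and its lowest values at 0.5% came from both arrays that stood apart (2.90 and 3.86). Its difference at 0.5% was -1.48 (SE 0.56, adjusted p = 0.563), and -0.75 without those arrays (adjusted p = 0.969).

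Other genes of the pathway were taken from 5 lists: 10 regulators, 18 mitochondrial, 32 peroxisomal, 3 ketogenesis and 21 activation and uptake genes measured. None passed in any comparison. At 1.0% against control, 7 of 10 regulators, 9 of 18 mitochondrial, 14 of 32 peroxisomal, 1 of 3 ketogenesis and 11 of 21 activation and uptake genes lay above 0, where 80% of the members and 48.5% of all genes did. At 1.0% against 0.1%, 7 of 21 activation and uptake genes were higher and 4 lower at an unadjusted p under 0.05. The counts were 1 and 2 for regulators, 1 and 2 for mitochondrial, 2 and 2 for peroxisomal and 0 and 0 for ketogenesis genes. In either direction 22.9% of the members and 9.42% of all genes met this rule. The slopes closest to passing belonged to Cyp4f14, a fatty acid hydroxylase (-0.52, SE 0.12, adjusted p = 0.0744), and Pnpla2, the triglyceride lipase ATGL (0.56, SE 0.14, adjusted p = 0.115). Plin5, a lipid droplet coat protein, had a slope of 0.52 (SE 0.16, adjusted p = 0.206).

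In the peroxisomal list the smallest p-values of the slope belonged to Hacl1, an enzyme of alpha-oxidation (-0.39, adjusted p = 0.145), Pex26, the membrane anchor of the import machinery (0.72, adjusted p = 0.211), and Pex5, the import receptor of peroxisomal enzymes (-0.31, adjusted p = 0.238). In the mitochondrial list they belonged to Acad9, an assembly factor of respiratory complex I (-0.27), Acacb, which makes the malonyl-CoA that inhibits CPT1 (-0.68, adjusted p = 0.358), and Acad8, a dehydrogenase of valine breakdown (-0.17). Among regulators they belonged to the coactivator Ncoa1 (-0.31, adjusted p = 0.34), Creb3l3, a liver transcription factor of the fasting response (0.15), and Pparg, the related receptor of adipocytes (0.61). The ketone body transporter Slc16a1 and the ketogenic enzymes Acat1 and Bdh1 had slopes of -0.11, -0.01 and 0.01. The other peroxisomal genes had slopes of both signs, 13 of 32 being above 0.

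How the members stood depended on the normalization, most of all for the 0.5% group. As deposited, all genes had medians of 0.11 above control at 0.1%, 0.15 at 0.5% and 0.05 at 1.0%. In those values 27 of 35 members (77.1%) lay above control at 0.5%, beside 93.1% of the 1820 brightest genes. The members' median at 1.0% against 0.5% turned to -0.02, where that of the brightest genes was -0.176 and that of all genes -0.0968. Relative to the 1820 brightest genes, to which 21 members belong, members were more often above 0 at 1.0% under each of 3 scalings: 80% and 40.1% after quantile normalization, 85.7% and 53.7% as deposited, and 65.7% and 20.2% centred on array medians. The same held at 1.0% against 0.1%, with 82.9% and 42.6%, 74.3% and 26.6%, and 80% and 31.9%. At 0.1% members were above control less often than these genes under all 3: 25.7% and 49.1%, 62.9% and 86.7%, and 14.3% and 32%. No test was made of these shares.

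**Figure D4:**
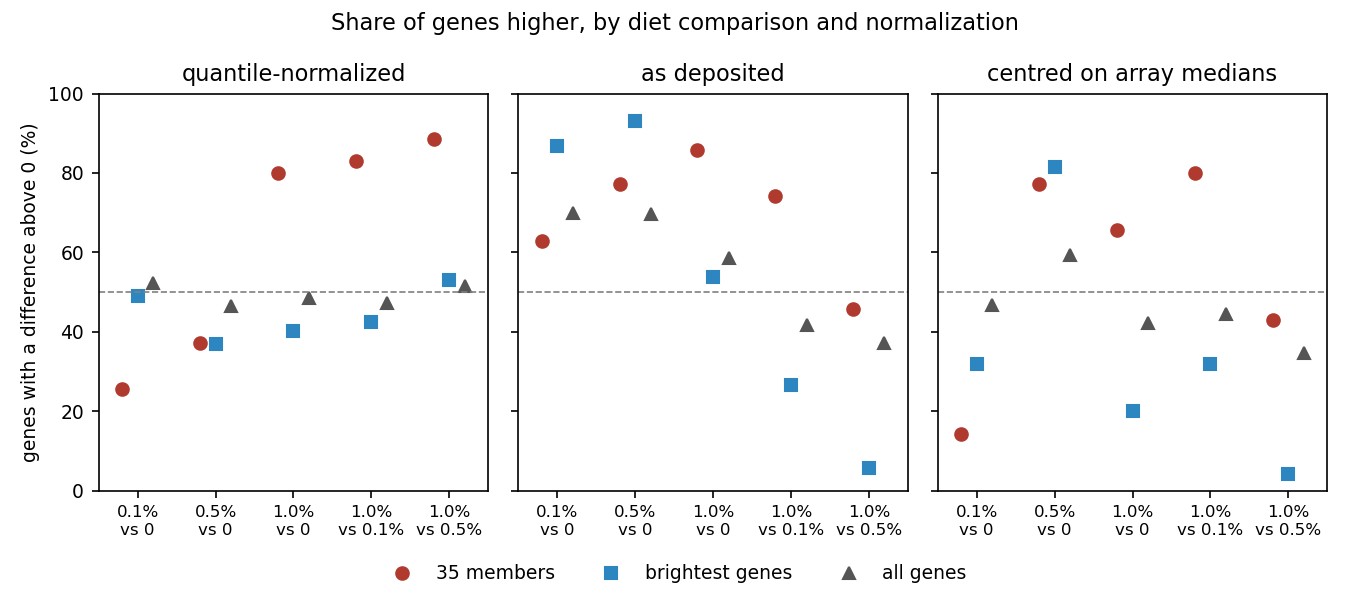
Share of genes with a difference above 0 (y axis, percent) in 5 diet comparisons (x axis) for the 35 members, the 1820 brightest genes and all 18193 genes, after quantile normalization, as deposited and after centring on array medians. Members exceed the brightest genes in each panel at 1.0% against control, 0.1% and 0.5%, while their share at 0.5% against control is 37.1% in the first panel and 77.1% in both others.

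Without the 4 arrays that stood apart, 27 of 35 members (77.1%) lay above control at 1.0%, with 51.5% of all genes, and 29 of 35 (82.9%) lay above 0.1%, with 49.9% of all genes. At 0.5% the count of members above control was then 23 of 35 (65.7%), against 13 with all arrays.

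The deviations of Pex11a within diets were set against those of the other members. Over the 20 arrays that did not stand apart, deviations of Pex11a from its diet means correlated above 0 with those of 28 of 34 other members (82.4%), against 49.3% of all genes, with medians of 0.30 and -0.01; Pex11a was chosen for this after its values were seen. Slc25a20 had the highest correlation (Pearson r = 0.76, permutation p = 0.0001, adjusted p over all genes = 0.437; Spearman rho = 0.78, permutation p = 0.00022, adjusted p = 0.267; r = 0.72 after leaving out the 2 arrays most distant from the median). Vnn1 (r = 0.70), Acadm (r = 0.61), Acot1 (r = 0.61) and Eci2 (r = 0.61) followed. None of 18192 genes passed after adjustment.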

How the data were processed

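Liver RNA of 24 mice was labelled as biotin cRNA, 1 array per mouse, per the labels' protocols. The authors deposited a table with intensity values of 45101 probe sets, linear and not logged; which software and background correction made them is not given in the sources used here. From these deposited intensity values, log2(intensity + 1) was computed and quantile-normalized between arrays, since array medians differed. The analysis used the 34945 probe sets with 1 gene symbol in the platform annotation; 932 with several symbols and 9160 unlisted ones did not enter, nor did 64 control probe sets. For each of 18193 genes the probe set of highest mean stood for the gene. Folds are on the log2(intensity + 1) scale, which understates changes of dim genes.

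All 24 arrays entered limma 3.58.1 (R 4.3.3; lmFit, eBayes, two-sided) with Benjamini-Hochberg adjustment over all genes, for each dose against control, pairs of doses, any difference among diets and the slope on percent quercetin. The fits were tested on simulated data with independent normal noise, without cage effects or arrays that stood apart. That test does not show how well small differences are found in these data. Members, role lists and other gene lists were chosen with earlier results of these data known, so no list was tested. Levels are given for members that passed in any comparison and, per role, for those with the smallest p of the slope (4 mitochondrial, 4 peroxisomal, up to 3 elsewhere); of the other pathway genes, 3 per list are named by the same p. Arrays farther than 3 median absolute deviations from the median on the first principal component were called apart. Correlations used deviations from diet means and 100000 permutations (NumPy 2.4.6, SciPy 1.17.1). Same-numbered replicates did not deviate together (mean r = 0.00486), so the numbers were not taken as pairs. The mice are separate animals per the labels. The p-values of the main fits set each difference against the spread between mice within diets, without a term for the cage.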

Additional observations from a re-analysis of the deposited data

Results flagged for a closer look

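Single mice stood far from the other 5 of their diet in 8 of 84 tests, each of 1 of 21 members in 1 of 4 diets. The limit used flags about 1 in 20 for independent, normally distributed values. The rate over all genes was not counted, so the 8 cannot be read as particular to these members. Eci2 in replicate 2 of the 1.0% group was at 9.38 on the normalized log2 scale, while the other mice lay between 9.69 and 9.83. Pdk4 in replicate 4 of the 0.1% group was at 3.92, with the others between 5.40 and 6.04. Vnn1 in replicate 6 of the 0.1% group was at 6.57, above the others at 5.50 to 5.88. Acot8 in replicate 2 of the 1.0% group was at 6.96, above the others at 6.55 to 6.65.

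Slc27a1 was at 1.46 in replicate 2 of the 1.0% group, below the others at 3.17 to 3.78, and at 2.30 in replicate 4 of the 0.5% group, below the others at 3.51 to 4.13. Acot3 in replicate 5 of the control group was at 1.89, with the others between 4.30 and 5.65, and Acot1 in replicate 3 of the control group was at 6.51, above the others at 5.67 to 5.93. Replicate 2 of the 1.0% group accounts for 3 of the 8 values and was not one of the 4 arrays that stood apart.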

How the results depend on the processing

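Of the members passing, the 2 at 1.0% against 0.1% became 0 without normalization, with arrays centred on their medians, with only the groups compared and without the 4 arrays that stood apart, and 1 with the most variable probe set or with replicates 1 to 3 and 4 to 6 as sets with a random effect. The 1 member with any difference among diets became 0 without normalization, centred, with the most variable probe set, with sets and without those 4 arrays, and 2 with a pseudocount of 16, without dim genes and with trend and robust eBayes. The 1 member with a slope changed the same way, to 0 or 2, and to 0 with array weights as well. The second member was Eci2. The members' median at 0.5% against control moved to 0.18 without normalization and 0.0946 centred, that at 0.5% against 0.1% to 0.096 and 0.138, and that at 1.0% against 0.5% turned to -0.0198 and -0.0443. In the same order the medians of the 1820 brightest genes were 0.181 and 0.0953, 0.092 and 0.134, and -0.176 and -0.2. At 1.0% against 0.5% the members thus still lay above the brightest genes. Over all genes, the 46 at 1.0% against 0.1% ranged from 6 without normalization to 124 without dim genes, and the 18 with a slope from 0 to 128. The cause of these shifts was not tested.

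With each array left out, 1 to 2 members passed at 1.0% against 0.1%, 0 to 2 among diets and 0 to 2 for the slope. Pex11a passed at 1.0% against 0.1% in 24 of 24 such fits (adjusted p 0.00506 to 0.0277). Its slope passed in 7 of 24 (0.0263 to 0.161), those without control replicate 4 or 6, 0.5% replicate 1, 3, 4 or 6, or 1.0% replicate 2, and its difference among diets in 8 of 24 (0.0167 to 0.102). Eci2 at 1.0% against 0.1% passed in 14 of 24 (0.00937 to 0.0951), and was lost without any 1 of 0.1% replicates 1 to 5 or 1.0% replicates 1, 3, 4, 5 and 6. Member medians ranged from 0.0586 (without 1.0% replicate 1) to 0.141 at 1.0% against control, from 0.0981 to 0.173 at 1.0% against 0.1%, from -0.0622 (without control replicate 6) to -0.0199 (without control replicate 4) at 0.1% against control, from -0.071 (without control replicate 1) to 0.00366 (without 0.5% replicate 6) at 0.5% against control and from -0.0289 (without 0.5% replicate 2) to 0.0312 (without 0.5% replicate 6) at 0.5% against 0.1%, and the peroxisomal minus mitochondrial difference at 1.0% from 0.126 to 0.235.

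With the replicate number as a block, 2, 1 and 1 members passed in the same 3 tests and no call of a member changed; Pex11a at 1.0% against 0.1% had an adjusted p of 0.0077. The medians of peroxisomal minus mitochondrial members and without Pdk4 were added after the data were seen. Dim members such as Cyp4a14, Cyp4a31, Slc27a1 and Acot4 have little signal over background, and 6 mice per diet limit what can be called.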
